A study of Caenorhabditis elegans with 2 samples.

Results

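Autosomal peaks at one-sided promoters are ChIP-seq peaks with a summit between 1000 bp before and 200 bp past the annotated 5′ ends of protein-coding genes on one strand only. They numbered 463 of the 2058 peaks of the series, which are 1627 peaks of the authors' conservative list and 431 peaks of a second thresholded list that overlap none of them. Peaks on chromosome X (404), at the right end of chromosome II (277) and with a summit within 200 bp of a tRNA gene (123) were set aside by the same rule. Of the 1254 autosomal peaks kept, 463 (36.9%, exact 95% interval 34.2 to 39.7) were one-sided, 179 lay in windows of both strands (divergent promoters), 353 lay in gene bodies and 259 were distal to protein-coding genes. For reference, one-sided windows cover 24.5% of the autosomes searched. Of 82992 autosomal peaks below the threshold in the authors' longer ranked list, 24.6% were one-sided. The rule used summit position and the authors' threshold, and no signal value.

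The study precipitated chromatin of whole Caenorhabditis elegans L4 larvae using anti-GFP, with 2 biological replicates forming 1 group. The animals were of strain OP351, which carries the transgene wgIs351, made from fosmid P000009_D03, with nhr-42 joined to TY1, EGFP and 3xFLAG tags and with unc-119(+), in an unc-119(tm4063) background. They were 50 h old, came from L1 larvae starved after bleaching, and gave chromatin sonicated to 200 to 800 bp. All values come from 1 transgenic strain and from whole animals, so tissues are not separated. The control that the labels name as possible is not used here, so no value has a background from animals without the tag.

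nhr-42 encodes a nuclear hormone receptor, one of a family of zinc finger transcription factors that is greatly expanded in nematodes. A promoter is the stretch around a gene's start where transcription factors and RNA polymerase gather, and in worms many promoters start transcription of a single gene. Many worm messenger RNAs are trimmed at their start by trans-splicing, so an annotated 5′ end can lie downstream of the place where transcription begins.

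The windows below show what lies under the summits of the strongest one-sided peaks on II to V whose windows overlap no annotated exon and hold no repeated sequence. Each spans 50 bp to either side of the summit on ce11 (WBcel235, RefSeq sequence) and is written 5′ to 3′ on the strand of the gene. Capitals mark matches on either strand to the motifs found more often at summits than beside them, which are the GC run GCGCG, the longer TCGCGC that overlaps it, the repeat GAGAGA, the word CTGCGTC and the box GGGCGG.
rpl-3, chrIII:3867525-3867625, plus strand: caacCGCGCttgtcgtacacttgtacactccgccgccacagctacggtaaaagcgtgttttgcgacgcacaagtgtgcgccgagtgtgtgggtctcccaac
rpl-35, chrIII:7854630-7854730, plus strand: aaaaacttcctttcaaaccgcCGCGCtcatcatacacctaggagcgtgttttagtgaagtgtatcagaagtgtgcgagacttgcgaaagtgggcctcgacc
cdc-48.1, chrII:10563537-10563637, minus strand: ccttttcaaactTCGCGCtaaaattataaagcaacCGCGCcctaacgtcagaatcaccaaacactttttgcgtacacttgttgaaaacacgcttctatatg
cox-5A, chrIII:12905141-12905241, plus strand: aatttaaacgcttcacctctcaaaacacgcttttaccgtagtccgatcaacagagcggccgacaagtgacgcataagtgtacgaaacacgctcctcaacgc
sec-61.G, chrV:10897326-10897426, minus strand: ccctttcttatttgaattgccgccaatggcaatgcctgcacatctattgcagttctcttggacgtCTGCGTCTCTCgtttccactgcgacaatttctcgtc
his-37, chrV:9546966-9547066, plus strand: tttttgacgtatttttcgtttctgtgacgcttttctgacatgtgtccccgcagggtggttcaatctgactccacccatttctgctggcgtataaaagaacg
cbp-1, chrIII:9765550-9765650, plus strand: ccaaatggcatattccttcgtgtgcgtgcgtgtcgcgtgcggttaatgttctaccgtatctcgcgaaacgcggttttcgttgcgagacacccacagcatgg
eelo-2, chrIV:17249854-17249954, plus strand: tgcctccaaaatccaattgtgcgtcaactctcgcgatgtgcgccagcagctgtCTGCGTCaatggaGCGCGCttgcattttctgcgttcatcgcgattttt

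One-sided peaks were found on all 5 autosomes, with 117 on I, 80 on II, 92 on III, 85 on IV and 89 on V. One-sided windows cover 19.7 Mb of the autosomes searched, which gives 23.5 peaks per Mb. The density was 34.8 peaks per Mb on I, 30.9 on III, 22.4 on II, 20.8 on IV and 15.6 on V. Divergent windows, which cover 2.18 Mb, held 82.3 peaks per Mb. The genes were on the plus strand at 220 of the peaks and on the minus strand at 243. In all, 428 genes had a one-sided peak, 441 peaks had 1 gene in the window and 22 had 2, and 50 genes had at least 2 peaks.

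The 463 peaks consisted of 369 from the conservative list and 94 from the second list. Signals, the authors' own values without a stated unit, are compared here within a list. In the conservative list one-sided peaks had a median signal of 101 (quartiles 82.4 and 142) and ran from 2.07 to 937. The 94 peaks of the second list had a median of 75.7. The 18 one-sided peaks with a signal under 20 all had a score of at least 835, and 17 of them overlapped another peak.

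The strongest one-sided peaks included those at genes for ribosomal proteins, DNA replication and respiration. At rpl-3, which encodes a protein of the large ribosomal subunit, signals of 583 (replicate 1) and 354 (replicate 2) were recorded, with a summit 279 bp upstream; later pairs of signals also give replicate 1 first. At rpa-2, a subunit of replication protein A that binds single-stranded DNA, the values were 469 and 329, and its summit window holds sequence with up to 7 genomic copies. rpl-35, another protein of the large ribosomal subunit, had 295 and 283. Replicate 1 was the higher at all 3 genes, by a small margin at rpl-35.

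cdc-48.1, an AAA ATPase that extracts ubiquitinated proteins, had signals of 279 and 277 in replicates 1 and 2, the closest pair of these. At cox-5A, a subunit of cytochrome c oxidase, the signals were 202 and 193. sec-61.G, a subunit of the channel that takes proteins into the endoplasmic reticulum, had 219 and 181, and its window is shared with F32D8.13. These 3 peaks were called in each replicate's own list, as the rule for naming them asks.

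Among the other strong peaks, ints-4, a subunit of the Integrator complex, was higher in replicate 2 (237) than in replicate 1 (203), and its summit lay in its own exon. The ints-4 summit window holds sequence in up to 2 copies. eel-1, a HECT-type ubiquitin ligase, had 217 and 165, and its summit window holds sequence in up to 13 copies. his-37, a histone H4 gene, had 188 and 182. cbp-1, the worm CBP/p300 histone acetyltransferase, had 177 and 192, with a summit 909 bp upstream. At these 4 genes the replicate signals lay between 165 and 237.

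Among the 25 strongest named peaks the ratio of the replicates was largest at R09E12.9, with 203 and 96.2. brc-1, the worm BRCA1 counterpart, also differed, with 171 and 87.2, and its window holds sequence in up to 25 copies. Of the 25, 20 were higher in replicate 1, 22 lay between genes, 13 had a summit from 0 to 300 bp upstream and 10 held repeated sequence.

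**Figure D1:**
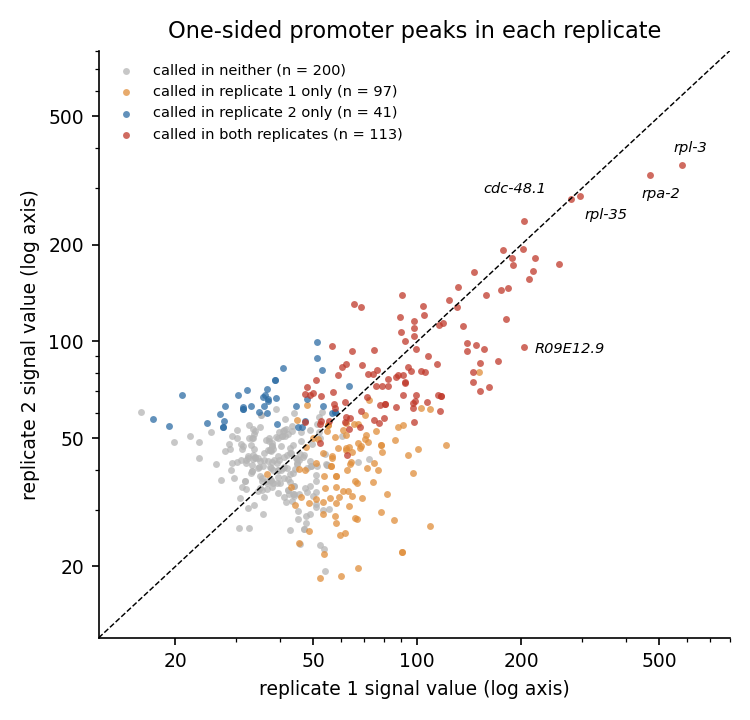
Signal in replicate 1 (x axis) and replicate 2 (y axis), both log axes, for the 451 one-sided peaks with a ranked peak in each replicate; colour shows in which replicates the peak passed the threshold and the dashed line marks equal signals. The peaks called in both replicates sit at the upper right, led by rpl-3 at 583 and 354, and the largest cloud, 200 peaks called in neither, lies between about 20 and 60.

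The peaks were chosen from the lists of the pair, and each replicate's own thresholded list was then searched for them. Of the 463, 210 (45.4%) overlapped a thresholded peak of replicate 1, 158 (34.1%) one of replicate 2 and 113 (24.4%, 20.6 to 28.6) one of each, while 208 (44.9%) overlapped neither. A ranked peak was present in both replicates for 451 peaks, and replicate 1 was higher in 252 of these. Across these 451 peaks, which share the 2 libraries, Spearman's rho of the replicate signals was 0.40 and Pearson's r on the log2 scale was 0.61, given as a description. In the 94 peaks of the second list, 0 were called in both replicates. These peaks were taken only where they overlap no conservative peak, so this count depends on how the list was built.

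One-sided peaks were called in both replicates less often than divergent promoter peaks and more often than gene body peaks. The shares were 24.4% of 463, 38.5% of 179 (69 peaks) and 14.7% of 353 (52 peaks). Fisher's exact test, two-sided and adjusted by Benjamini-Hochberg over 3 comparisons, gave an odds ratio of 0.515 and an adjusted p of 0.00119 against divergent peaks. Against gene body peaks the odds ratio was 1.87 and the adjusted p 0.00119. Against distal peaks, of which 20.1% of 259 were called in both, the odds ratio was 1.29 and the adjusted p 0.197. Peaks are not replicates, so these p-values compare peaks of 1 experiment. With the narrower window, 500 bp before to 100 bp past the 5′ end, the comparison with divergent peaks did not pass (odds ratio 0.682, exact adjusted p = 0.0891). Among peaks at or above the median signal neither call held, with an odds ratio of 0.677 against divergent (exact adjusted p = 0.252) and 1.26 against gene body peaks (exact adjusted p = 0.441).

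Signal gave the same order, but it is not separate from the calls. Conservative one-sided peaks called in both replicates had a median signal of 173, and the others 88.8. Strong peaks, with a signal at or above 97.2, the median of the autosomal peaks kept from the conservative list, made up 198 of 369 one-sided peaks (53.7%). They made up 113 of 156 divergent peaks (72.4%; odds ratio 0.441, adjusted p = 9.57e-05 by Fisher's exact test) and 86 of 262 gene body peaks (32.8%; odds ratio 2.37, adjusted p = 8.45e-07). Of 204 distal peaks 99 were strong (48.5%; odds ratio 1.23, exact adjusted p = 0.257). The median signals were 101 for one-sided, 131 for divergent, 87.3 for gene body and 95.8 for distal peaks. By replicate, one-sided and divergent medians were 52.4 and 73.4 in replicate 1 but lay close together, at 52.4 and 53.0, in replicate 2. In replicate 2's own list the strong-peak comparison with divergent peaks passed (odds ratio 0.485, exact adjusted p = 0.0385). The strong-peak comparison with gene body peaks did not pass there (odds ratio 1.72, exact adjusted p = 0.0643). Sequence in more than 1 genomic copy was present at 15.1% of one-sided, 17.3% of divergent, 21.8% of gene body and 32.4% of distal peaks. Without those peaks, an alternative chosen after seeing the data, the odds ratios of strong peaks were 0.421 against divergent, 2.43 against gene body and 1.56 against distal peaks, and the last then passed (exact adjusted p = 0.0378). The comparison with distal peaks of calls in both replicates also passed without them (odds ratio 1.73, exact adjusted p = 0.0302).

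**Figure D2:**
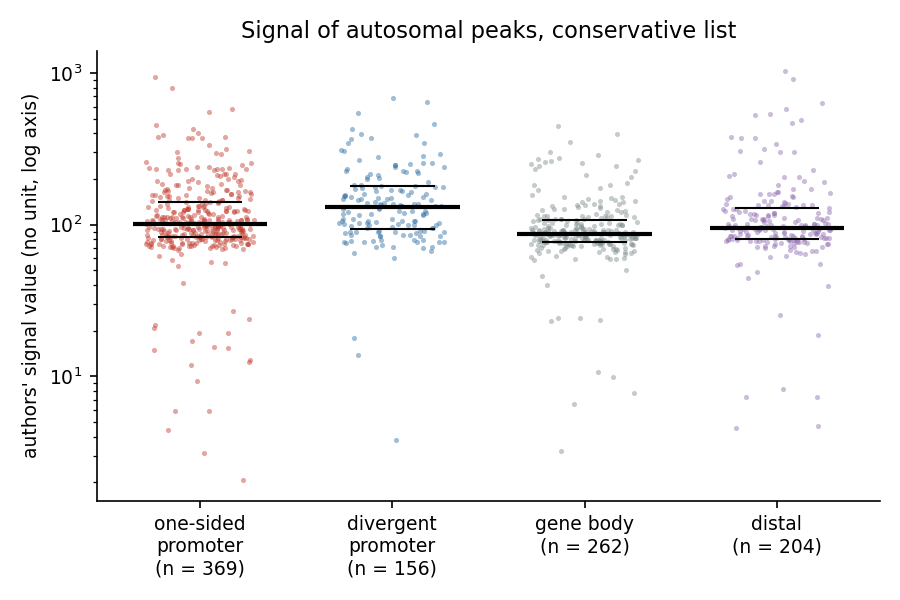
Signal of the autosomal peaks of the conservative list (log axis, no unit) by where the summit lies; points are peaks, the long bar is the median and the short bars are the quartiles. One-sided peaks, with a median of 101, sit between divergent (131) and gene body peaks (87.3).

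Summits of one-sided peaks gathered close upstream of the annotated 5′ end. The median lay 243 bp upstream (quartiles 63 and 485.5), 381 (82.3%) were upstream, and 189 (40.8%, 36.3 to 45.5) lay from 0 to 300 bp upstream. Ranked peaks that missed the threshold lay in the same windows at a median of 356 bp, with 24.3% from 0 to 300 bp upstream. At the upstream edge of the window, 10 peaks lay within the last 50 bp inside it and 8 peaks within 50 bp outside it and outside every other window.

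Among conservative one-sided peaks ranked by signal, 48 of the 92 strongest (52.2%) and 31 of the 92 weakest (33.7%) had a summit 0 to 300 bp upstream, an odds ratio of 2.15 with p = 0.0169 by Fisher's exact test, two-sided. This call is fragile. It was lost when each replicate's own list was used (odds ratio 2.58, exact p = 0.0685 in replicate 2, and 1.33, exact p = 0.571 in replicate 1) and under 5 further settings. Between-gene summits made up 79 of the strongest 92 and 37 of the weakest 92, and summits downstream of the 5′ end made up 2 and 29, given as counts.

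**Figure D3:**
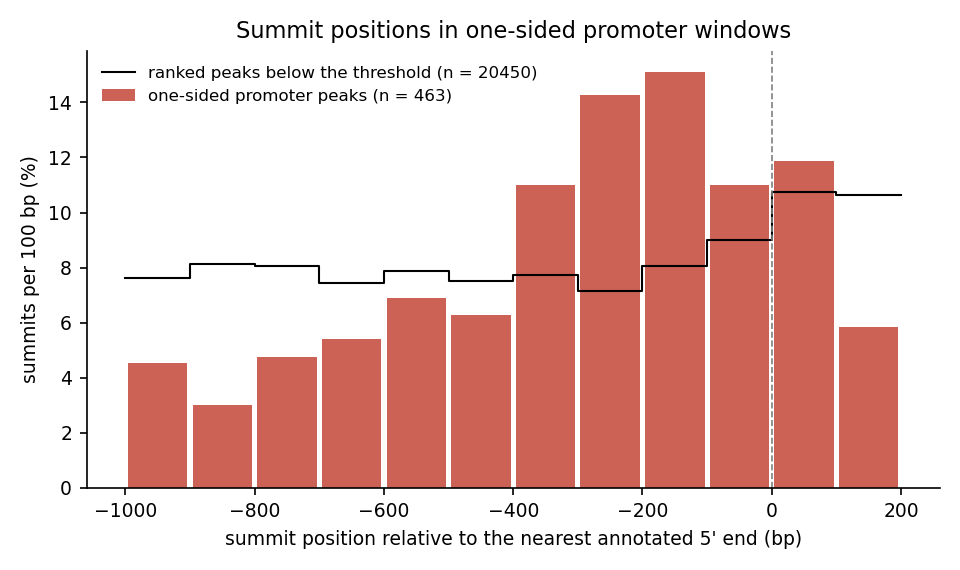
Positions of the 463 one-sided summits relative to the nearest annotated 5′ end (x axis in bp, negative upstream) as percent of summits per 100 bp; the line gives the 20450 ranked peaks of such windows below the threshold. One-sided summits reach 15.1% of the total from 100 to 200 bp upstream, where the line stands at 8.05%.

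Most one-sided summits lay between genes (276 of 463, 59.6%), while 83 lay in an exon and 64 in an intron of their own gene and 40 in another gene. The window came only from a start inside the gene, rather than the outermost start, for 81 peaks (17.5%), and in 22.2% of the ranked peaks below the threshold. The gene's upstream neighbour was on the same strand for 309 peaks (66.7%), and ended within 500 bp for 136. The rule leaves out summits that also lie in a window of the other strand, so this share is partly set by the rule. It has no share over all genes beside it.

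Genes with a one-sided peak were compared with 10593 autosomal genes with a one-sided ranked summit in the window, of which 428 (4.04%) had one, and with all 16937 autosomal genes, of which 2.53% had one. Ribosomal protein genes stood above this, with peaks at 6 of 30 large subunit genes (rpl-3, rpl-35, rpl-24.2, rpl-41.2, rpl-29 and rpl-14) and 4 of 20 small subunit genes (rps-24, rps-28, rps-4 and rps-17), or 20% of each. Over both subunits the share was 14% in replicate 1's own list and 12% in that of replicate 2, where the shares over all genes were 2.11% and 1.58%. rps-24, whose summit window holds sequence in up to 81 copies, had signals of 145 and 74.7. rps-4 had 72.4 and 43.1 and was called in neither replicate. rps-17 was also called in neither, with 33.4 in replicate 1 and no ranked peak in replicate 2. rps-28, with 92.4 and 74.8, was called in both and held no repeated sequence. These lists were chosen by name and carry no test.

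Among respiratory chain genes 6 of 26 (23.1%, 8.97 to 43.6) had a peak. cox-6A, a subunit of cytochrome c oxidase, had signals of 105 and 121, and cox-5B, another subunit, had 139 and 93.6. The cox-6A summit window, 810 bp upstream, holds sequence in up to 21 copies. sco-1, a factor in copper delivery to that enzyme, had 99.0 and 94.7. cyc-1 and cox-17 also had peaks. The vacuolar ATPase, the proton pump of acidic organelles, had peaks at 3 of 11 genes (vha-9, vha-13 and vha-16), with pooled-list signals of 98.4, 93.9 and 74.9, none of them called in both replicates.

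Of 35 chaperone genes 6 (17.1%) had a peak: bag-1, hsp-1, dnj-9, sti-1, pfd-6 and dnj-24. hsp-1, a constitutive Hsp70, had 107 and 65.0. The ubiquitin list had peaks at 7 of 54 genes (13.0%, 5.37 to 24.9) and vesicle transport at 8 of 65 (12.3%, 5.47 to 22.8, among them vps-39 with 124 and 134). The vps-39 summit window holds sequence in up to 20 copies. Nuclear pore and transport had 4 of 28 (4.03 to 32.7%) and splicing 4 of 34 (3.30 to 27.5%). DNA replication had 3 of 19 (3.38 to 39.6%): rpa-2, pcn-1, the sliding clamp PCNA (90.2 and 140), and mcm-4, a helicase subunit (42.8 and 25.9) called in neither replicate. The intervals of the nuclear pore, splicing and DNA replication lists hold 4.04%. Mitochondrial ribosomal proteins (3 of 41, 7.32%), translation factors (2 of 24), cell cycle (2 of 35), proteasome (2 of 20), cytoskeleton (2 of 40), tRNA synthetases (1 of 21) and histones (1 of 25) had smaller shares, with intervals that also hold 4.04%.

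Chemoreceptors, receptors of sensory neurons, had peaks at 3 of 605 genes (0.496%, 0.102 to 1.44), innate immunity genes at 1 of 211 (0.474%, up to 2.61) and collagens at 0 of 90 (up to 4.02%), with intervals below 4.04%. The collagen interval ends only just below it. Among all autosomal genes collagens had 0 of 143, set against 2.53%, with no interval computed. The intervals of all other lists in this paragraph hold 4.04%. Homeobox genes had 0 of 49 (up to 7.25%) and GATA, forkhead and T-box factors 0 of 27 (up to 12.8%). Nuclear hormone receptors, the family of nhr-42, had 6 of 183 (3.28%, 1.21 to 7.0), near the background, led by nhr-178 with signals of 115 and 68.1 and nhr-238 with 98.0 and 56.1. Detoxification genes had 2 of 97 (0.251 to 7.25%), lipid metabolism 3 of 102, F-box and MATH genes 5 of 258, hedgehog-related genes 1 of 51, neuropeptides 1 of 60 and sperm proteins 1 of 53. bHLH factors had 2 of 17 (hlh-11 and hlh-30) and heterochronic genes 1 of 10 (lin-66). Of 6 lists of tissue markers, 5 had no one-sided peak and germline had 1 of 8, cgh-1, with 42.2 and 37.4.

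**Figure D4:**
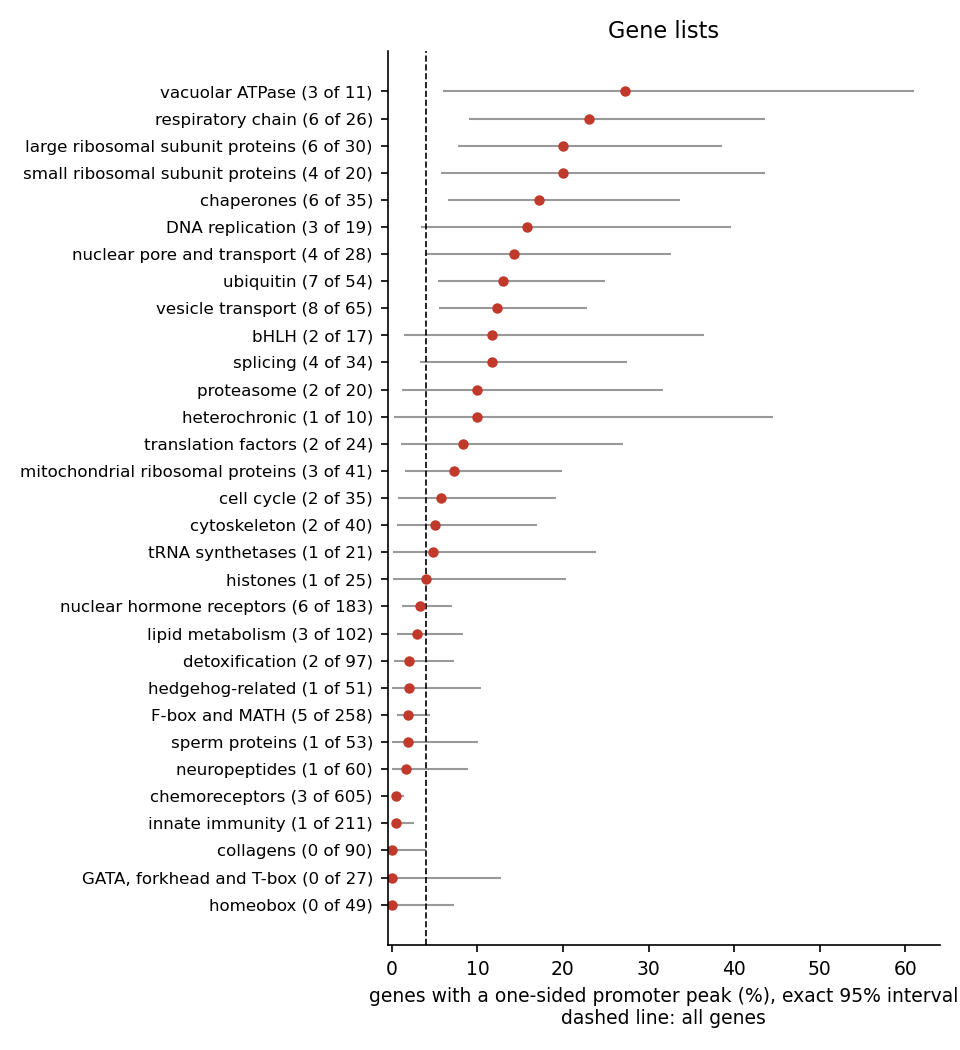
Percent of each list's genes with a one-sided peak (points, with exact 95% intervals covering counting error only); the dashed line is the 4.04% of all genes with a one-sided ranked summit. The vacuolar ATPase, the respiratory chain and the large and small ribosomal subunit lists lie at 20% or above, mitochondrial ribosomal proteins lie at 7.32%, and chemoreceptors and innate immunity genes lie under 0.5%.

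The DNA under one-sided summits was richer in G and C than its surroundings. The 101 bp at the summit held 47.1% ± 8.69 GC (SD over 463 peaks), against 36.2% in a window centred 500 bp away from the gene and 39.3% at ranked summits below the threshold. It was higher at the summit than in the flank in 366 of 463. Divergent summits stood at 50.2%. High GC was not particular to one-sided peaks. In the conservative list the median GC was 47.5% at one-sided, 50.5% at divergent, 48.5% at gene body and 48.5% at distal summits. The part of GC content in the motif shares that follow was not tested.

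Of 20 motifs, each searched on both strands, 5 were more frequent at summits than in the flank away from the gene (exact McNemar test, two-sided, Benjamini-Hochberg over 20 motifs). The 20 motifs, CTGCGTC among them, were chosen with earlier results of these data known, so their p-values are not independent support. GCGCG matched 25.7% of summits against 4.32% of flanks (exact adjusted p = 6.05e-20), as at rpl-3 and rpl-35. GAGAGA, the repeat bound by GAGA factors in flies, matched 17.9% against 4.97% (exact adjusted p = 4.45e-09). CTGCGTC matched 7.13% against 0.864% (exact adjusted p = 4.34e-06), as at sec-61.G and eelo-2. GGGCGG, a box bound by Sp1 in mammals, matched 7.34% against 1.30% (exact adjusted p = 2.39e-05). Ranked one-sided summits below the threshold, windows of the same length, matched GCGCG at 6.02%, GAGAGA at 6.73%, CTGCGTC at 1.78% and GGGCGG at 2.91%. The GAGAGA difference between summits and flanks was 13.0 percentage points in all, 19.6 in replicate 1's own list and 4.97 in that of replicate 2, where it did not pass (exact adjusted p = 0.276). For GCGCG the difference was 21.4 points in all, 22.7 in replicate 1 and 32.3 in replicate 2, and for CTGCGTC it was 6.26, 12 and 7.45 points in the same order.

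The fifth, TCGCGC, matched 7.99% against 0.864% (exact adjusted p = 5.13e-07), but it contains the reverse complement of GCGCG. All 37 summits with TCGCGC therefore held GCGCG by definition. In simulated windows in which only GCGCG was planted, TCGCGC was called as well, so its call is not separate from that of GCGCG. At least 1 of the 5 motifs was present at 218 summits (47.1%), in 48 flanks (10.4%) and at 15.6% of ranked one-sided summits below the threshold. The GCGCG share was 42.4% in the 92 strongest (39) and 14.1% in the 92 weakest (13), given as counts.

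TTTCAG, the letters of the worm splice acceptor, was less frequent at summits (10.2% against 24.8%, exact adjusted p = 1.09e-07), as were runs of 8 T (4.75% against 13.6%, adjusted p = 1.02e-05) and TATAAA (4.32% against 8.64%, adjusted p = 0.0337). The difference for T runs was -8.86 percentage points in all, -13.3 in replicate 1's own list and -7.45 in that of replicate 2, where it did not pass (exact adjusted p = 0.0965). The TATAAA difference missed the threshold under 7 alternatives and changed sign in replicate 2's own list. AGGTCA, the half-site of many nuclear hormone receptors, matched 1.30% of summits and 2.38% of flanks (exact adjusted p = 0.415), and AAAGTCCA 0 of 463, which allows up to 0.794%. Against divergent promoters 1 of 20 motifs passed (Fisher's exact test), GCGCG at 25.7% against 38.5% (odds ratio 0.551, adjusted p = 0.0381). That call was lost under 9 other settings.

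**Figure D5:**
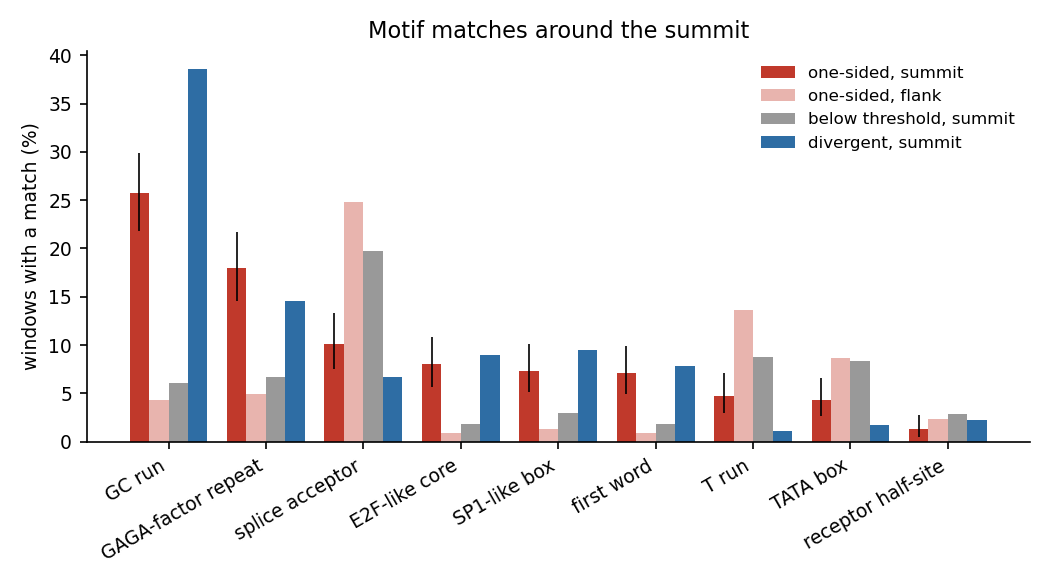
Percent of 101 bp windows with a match, for one-sided summits (with exact 95% intervals), their flanks, ranked one-sided summits below the threshold and divergent summits; motifs are named by type, with GC run for GCGCG, E2F-like core for TCGCGC, first word for CTGCGTC and receptor half-site for AGGTCA. The GC run stands at 25.7% at one-sided summits and 4.32% in their flanks.

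Some of the strongest windows share longer letters, chosen after reading the sequences and therefore without a test. The windows read are themselves among the 92 strongest, so the counts in strongest and weakest peaks are partly set by that choice. AAACACGC, on either strand, was at 11 of 463 summits, 0 flanks, 8 of the 92 strongest and 2 of the 92 weakest, among the strongest rpl-3, rpl-35, cdc-48.1 and cox-5A. TGCGCCA was at 28 summits, 3 flanks, 15 of the 92 strongest and 0 of the 92 weakest, among the strongest eelo-2. Divergent summits held both words too, AAACACGC at 2.23% (one-sided 2.38%) and TGCGCCA at 8.38% (one-sided 6.05%).

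Neither nhr-42 nor unc-119, the genes named in the transgene, held a one-sided peak. nhr-42 had no ranked summit in its promoter window. In the longer conservative list unc-119 had 2 ranked summits in its window, with scores of 438 and 88 and signals of 53.5 and 25.3, both below the threshold of 830. Read depth cannot be had from peak lists, and intervals of shares cover counting error only.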

How the data were processed

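The authors deposited 8 peak lists on ce11, per the labels: a thresholded and a ranked list for each replicate (875 and 702 thresholded peaks) and for the pair. The score in each list is the authors' scaled irreproducible discovery rate (IDR), capped at 1000, with a threshold of 830, an IDR of about 0.01. The signal value is the authors' own, with no stated unit. Which caller and aligner were used is not given in the sources used here. Beyond naming them biological replicates, the labels do not say that the replicates came from separate cultures.

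Summits were the deposited peak start plus summit offset. Genes came from Ensembl release 115 on WBcel235, the same assembly, with windows around the 5′ ends of all protein-coding transcripts. A replicate called a peak where its thresholded list overlapped it by at least 1 bp. Shares were compared by Fisher's exact test and motifs by exact McNemar tests, all two-sided, with Benjamini-Hochberg adjustment at 0.05, and intervals are Clopper-Pearson 95% intervals. Repeated sequence means a 24-mer of the summit window in at least 2 genomic copies, a measure added after the data were seen.

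Members, lists, motifs and tests were chosen with earlier results of these data known. The gene lists were edited once more after their hits had been seen: a name prefix was removed from translation factors that had brought in a hit, and entries were dropped from DNA replication and cell cycle. The genes named are those at the 25 strongest conservative peaks called in both replicates, up to 4 bound genes per list, nhr-42 and unc-119; rpl-29, rpl-14 and other list members beyond these are named to complete a count.

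On simulated data the steps found 400 of 400 planted one-sided summits among 1000. The same windows chose and then classified these positions, so that count was fixed in advance and checks only that the code runs. With 1 of 20 motifs planted the steps called 2, the planted GCGCG and TCGCGC, which contains its reverse complement. Simulated summits and flanks had the same base composition, while real ones held 47.1% and 36.2% GC. How that difference affects the motif calls was not tested. Tests used scipy 1.17.1 under Python 3.11.15, tables pandas 2.3.3 and figures matplotlib 3.10.9.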

Additional observations from a re-analysis of the deposited data

How the results depend on the processing

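The count of 463 was 161 to 225 without 1 replicate and 256 at or above the median signal; the share of 36.9% became 31.3% with gene-level 5′ ends, 29.7% and 42.3% with the narrower and a wider window, and 40.1% at or above the median. Genes with a peak (4.04%) were 3.27% in the conservative list, 1.58% to 2.11% without 1 replicate, 4.50% with the wide window, 2.51% at or above the median, 2.53% over all genes and 3.46% without repeated sequence. Called in both, the odds ratio against divergent peaks was 0.682 (exact adjusted p = 0.0891) with the narrow window and 0.677 (0.252) at or above the median, where that against gene body peaks was 1.26 (0.441); against distal peaks it passed with gene-level ends (1.51, 0.0327) and without repeated sequence (1.73, 0.0302). For strong peaks it was 1.72 to 2.02 against gene body peaks without 1 replicate, missing the threshold without replicate 1 (0.0643), and against distal peaks it passed with the narrow window (1.48, 0.0233) and without repeated sequence (1.56, 0.0378). The comparison of summit position in the strongest and weakest peaks missed the threshold in the second list (1.66, p = 0.0940 by Fisher's exact test), without 1 replicate (1.33 to 2.58), with the narrow window (1.94), with tRNA peaks kept (1.81), at or above the median (1.37) and within 150 bp (1.75). Motifs that differ from divergent promoters numbered 0 under 9 settings, the first and second list alone, each replicate alone, gene-level ends, the narrow window, the median signal and windows of 25 and 100 bp. Motifs more frequent in flanks numbered 1 to 2 without 1 replicate; TATAAA differed by -3.56 to 0.621 percentage points without 1 replicate, with the opposite sign and exact p = 1 without replicate 1. Leaving out repeated sequence, an alternative chosen after seeing the data, kept 15 of the 25 strongest named peaks. The causes were not tested. No paired comparison of conditions was possible because the study has 1 group.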
